A study of Homo sapiens with 4 samples.

Results

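The human alpha-globin locus was taken as all CpGs between bases 100000 and 190000 of chromosome 16 on hg38, a stretch that holds the genes HBZ, HBM, HBA2, HBA1, HBQ1 and most of NPRL3. The rule for the members is one of position and uses no methylation value, and the locus was picked with earlier results of these data known. The reference sequence has 2696 CpGs there, and 2010 of them were listed in at least 1 of the 4 deposited tables, out of 25854361 CpGs listed on chromosomes 1 to 22 and X. All 4 tables listed 1627 of them, which are called shared CpGs here. The cells were HUDEP-2, an immortalised line of human erythroid precursors whose labels give adult haemoglobin as its normal product, assayed by whole-genome bisulfite sequencing. This method turns unmethylated cytosine into a base read as T, so the share of reads with C at a CpG is its methylation level. There were 4 libraries, 1 per group: non-differentiated untreated cells in expansion medium, and 3 groups of differentiated cells, given DMSO as vehicle, an inhibitor of DNMT1, or one of EED. Differentiation had a growth stage of 4 days and a maturation stage of 2 days, and compounds were given in 0.1% DMSO from the expansion stage on. The comparison of DMSO with non-differentiated cells is called differentiation here. Vehicle and medium change together with differentiation in it, and these cannot be told apart. Doxycycline and erythropoietin were in the expansion and differentiation media of all groups, and dexamethasone was in the expansion medium. The names and doses of the inhibitors are not given in the sources used here.

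Haemoglobin joins alpha-type and beta-type globin chains around haem. HBZ encodes the embryonic zeta chain, HBA2 and HBA1 are near-identical genes for the alpha chain made in fetal and adult red cells, HBM encodes the mu chain and HBQ1 the theta chain. HBZP1 and HBAP1 are pseudogenes of the cluster. In erythroid cells the cluster is driven by upstream enhancers known as HS-48, HS-40, HS-33 and HS-10, named by their distance in kb from HBZ, of which HS-40 is the strongest. HS-48, HS-40 and HS-33 lie in introns of NPRL3, a gene read in the opposite direction whose product is a subunit of GATOR1, a brake on mTORC1 signalling. DNMT1 copies CpG methylation onto new DNA strands, and EED belongs to a Polycomb complex whose mark on histone H3 goes with silent genes. The alpha-globin genes start in GC-rich CpG islands, a class of sequence that is usually unmethylated.

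The enhancers were not mapped in these files, so each site was taken as 1500 bp on either side of the point 48, 40, 33 or 10 kb upstream of the HBZ transcript start at chr16:152644. Inside each site the longest stretch of low methylation was found, where the running level of 3 shared CpGs in non-differentiated cells stayed under 50%. The 300 bases centred on 3 of these stretches are printed because they are low points of the sites, on hg38 and the plus strand, at chr16:104955-105254 for HS-48, chr16:119789-120088 for HS-33 and chr16:143291-143590 for HS-10. Capitals mark CpGs.
HS-48: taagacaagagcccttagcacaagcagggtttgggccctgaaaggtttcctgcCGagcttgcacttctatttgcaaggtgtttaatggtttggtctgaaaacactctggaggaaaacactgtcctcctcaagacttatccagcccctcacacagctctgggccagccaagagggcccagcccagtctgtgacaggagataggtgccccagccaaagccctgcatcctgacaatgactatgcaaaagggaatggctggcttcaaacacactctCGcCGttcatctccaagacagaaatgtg
HS-33: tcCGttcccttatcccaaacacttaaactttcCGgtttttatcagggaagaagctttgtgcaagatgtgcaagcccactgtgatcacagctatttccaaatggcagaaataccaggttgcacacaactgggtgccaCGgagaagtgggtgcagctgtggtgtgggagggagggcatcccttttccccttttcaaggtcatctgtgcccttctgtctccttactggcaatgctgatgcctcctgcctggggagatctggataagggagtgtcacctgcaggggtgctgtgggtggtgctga
HS-10: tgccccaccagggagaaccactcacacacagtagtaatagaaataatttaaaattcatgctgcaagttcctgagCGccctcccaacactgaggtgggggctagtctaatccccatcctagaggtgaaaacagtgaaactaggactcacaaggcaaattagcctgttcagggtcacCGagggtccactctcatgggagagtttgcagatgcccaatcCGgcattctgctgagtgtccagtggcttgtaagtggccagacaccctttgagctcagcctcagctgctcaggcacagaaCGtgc
The motifs searched on both strands were AGATAA for GATA factors, TGACTCA or TGAGTCA for NF-E2 (reverse complements of each other, counted as 1 site) and CCACCC for CACCC-binding factors. The HS-33 window held 1 CACCC match, at base 289 counted from the first base printed, and the letters of none of the motifs were in the HS-48 and HS-10 windows. Among 272666 windows of 300 bp tiled over chromosome 16, 16.6% held the GATA letters, 4.74% those of NF-E2 and 20.3% those of CACCC. In the 300 such windows of the locus the shares were 8.33%, 3.33% and 36.3%. A match is a run of letters and not a measured binding site. Other forms of the GATA motif were not searched, so a window without AGATAA may still hold one.

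These windows, chosen as low points, had few CpGs. The 3 CpGs of the HS-48 window had levels of 2.50% in non-differentiated cells, 0% with DMSO, 0% for the DNMT1 inhibitor and 2.22% for the EED inhibitor. Below, 4 levels in a row follow this order of libraries. For the 4 CpGs of the HS-10 window the levels were 4.04%, 4.90%, 0.855% and 4.24%. The HS-33 window was the highest of the 3, with 10.4%, 19.5%, 4.05% and 16.7% over 3 CpGs.

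Promoter sequences of NPRL3 and HBM show the opposite make-up, with CpGs packed closely. The 250 bases upstream of each start come from RefSeq on GRCh38.p14, in the direction of the gene, at chr16:138674-138923 on the minus strand for NPRL3 and chr16:165728-165977 on the plus strand for HBM. Of the 6 genes, these 2 matched the table of promoters used. The last sequence is the start of the longest run of CpGs that no table listed, 4 units of a repeat at chr16:186024-186091. Capitals mark CpGs.
NPRL3 promoter: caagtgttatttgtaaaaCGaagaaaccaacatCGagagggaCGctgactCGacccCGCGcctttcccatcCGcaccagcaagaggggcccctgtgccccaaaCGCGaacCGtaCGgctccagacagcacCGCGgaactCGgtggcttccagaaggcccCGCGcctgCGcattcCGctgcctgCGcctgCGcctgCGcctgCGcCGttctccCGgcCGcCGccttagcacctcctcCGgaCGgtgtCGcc
HBM promoter: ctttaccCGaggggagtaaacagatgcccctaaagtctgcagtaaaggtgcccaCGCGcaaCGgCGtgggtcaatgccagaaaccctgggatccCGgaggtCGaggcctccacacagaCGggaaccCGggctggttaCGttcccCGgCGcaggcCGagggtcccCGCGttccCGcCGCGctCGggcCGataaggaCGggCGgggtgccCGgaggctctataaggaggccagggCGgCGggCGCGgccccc
repeat: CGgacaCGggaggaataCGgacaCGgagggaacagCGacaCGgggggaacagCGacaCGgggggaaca
The NPRL3 sequence has 29 CpGs, of which 15 were shared, with levels of 0%, 0.855%, 0.350% and 0%. The HBM sequence has 27, of which 8 were shared, at 0% in all 4 libraries on 90 to 116 reads. No match to the 3 motifs was in either. All 8 CpGs of the repeat sequence were missing from every table.

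Each table gives, for a CpG with at least 10 reads, its coverage as a read count and its percent of methylated reads. Mean coverage over all listed CpGs of the genome was 27.2 to 29.7 reads per library, and over the shared CpGs of the locus it was 23.7 reads in the non-differentiated, 23.4 in the DMSO, 25.3 in the DNMT1 inhibitor and 23.7 in the EED inhibitor library. A level is the sum of methylated reads over the sum of reads of a set of shared CpGs. Intervals are 95% Wilson intervals for levels and 95% Newcombe intervals for differences, and cover counting error only. Because each group had 1 library, a test compares the reads of 2 libraries and not the conditions, and differences between segments have no test.

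Over the locus, 686 reference CpGs (25.4%) were in no table, 120 in 1 table, 126 in 2, 137 in 3 and 1627 (60.3%) in all 4. The HBZ gene had 116 CpGs and none was shared, the HBA1 gene had 64 and none was shared, and the HBA2 gene had 12 shared of 64. HBQ1 had 6 shared of 72 and HBM 29 of 72. By contrast, 685 of the 750 CpGs in the NPRL3 body inside the region and 328 of the 351 between NPRL3 and HBZ were shared. All 4 enhancer sites were nearly complete: 51 of 52 CpGs were shared at HS-48, 46 of 46 at HS-40, 26 of 27 at HS-33 and 48 of 49 at HS-10.

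**Figure D1:**
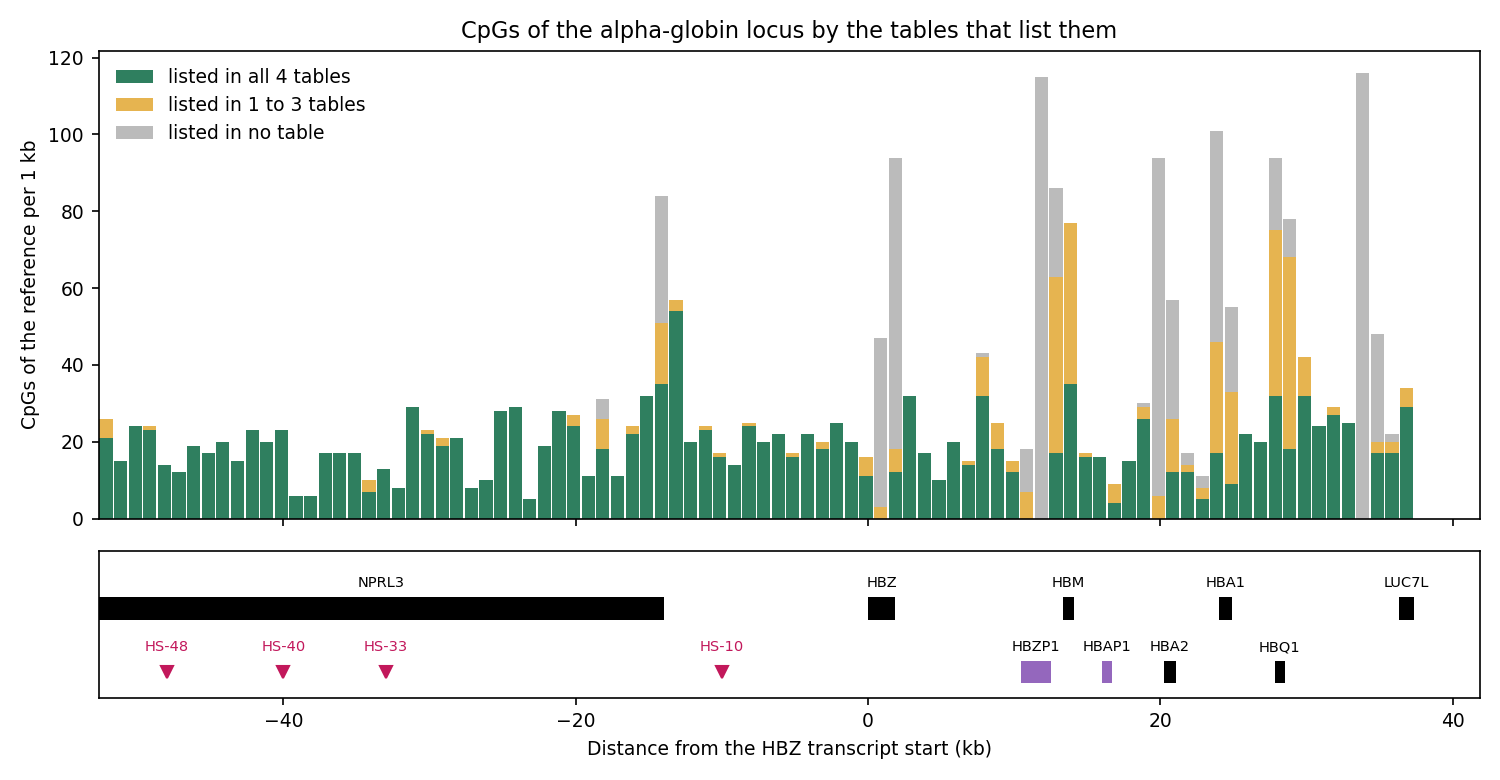
Reference CpGs per 1 kb window along the locus, stacked by whether all 4, 1 to 3 or none of the tables listed them; the x axis is the distance in kb from the HBZ transcript start, with genes, pseudogenes (purple) and enhancer points drawn underneath. Windows over NPRL3 are mostly green, while those over HBZ, HBZP1, HBA2, HBA1, HBQ1 and the repeat past HBQ1 hold most of the 686 CpGs in no table.

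Missing CpGs sat in dense, GC-rich and repeated sequence. Of reference CpGs with 1 to 10 CpGs within 250 bp, themselves included, 494 of 549 (90%) were shared, and with 11 to 30 CpGs 970 of 1094 (88.7%) were. With 31 or more 163 of 1053 (15.5%) were shared. The median GC content of the sequence around a CpG was 72.1% for those in no table and 51.5% for those in all 4. A CpG was called repeated where the 50 bases around it occurred again in the region after C was read as T. Of 712 such CpGs 150 (21.1%) were shared, against 1477 of the 1984 others (74.4%). Coverage, alignment and GC content were not separated further, and their parts in the missing CpGs were not tested.

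The longest runs without a listed CpG lay in a tandem repeat and in the duplicated genes. The first was 144 CpGs at chr16:186024-187237, a tandem repeat with a period of 17 bp in which 99.5% of bases matched the base 1 period on. The next longest was 128 CpGs at chr16:163949-165099 in HBZP1. Another run, of 117 CpGs, lay at chr16:153359-154619 in HBZ. The repeated 50-mers of the HBZP1 and HBZ runs had their copies at a median distance of 10590 bp, each in the other run's gene. A run of 118 CpGs at chr16:172249-173343 covered most of the HBA2 promoter and much of the gene. Its copies lay 3804 bp away on the HBA1 side, where runs of 41 CpGs at chr16:176326-176603 and 29 at chr16:176785-177110 were also unlisted. A run of 33 CpGs at chr16:138223-138676 spanned the NPRL3 start and the sequence just inside the gene.

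Which CpGs were listed also differed between libraries. There were 1875 listed CpGs in non-differentiated cells, 1772 with DMSO, 1820 for the DNMT1 inhibitor and 1824 for the EED inhibitor. At HBQ1 the non-differentiated library listed 52 of the 72 CpGs of the gene, against 16 with DMSO, 10 for the DNMT1 inhibitor and 6 for the EED inhibitor, and 35 CpGs were listed there in 1 table. At HBM the gene had 67, 30, 45 and 70 listed CpGs, so DMSO had the fewest. CpGs listed in only part of the tables were less methylated than shared ones, at 23.1%, 39.2%, 8.35% and 25.7% in the 4 libraries, on means of 13.3 to 14.1 reads. Levels from each library's own listed CpGs therefore come from unequal sets.

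Across the locus the DNMT1 inhibitor library stood far below the other 3, which lay close together. The locus level was 76.3% (75.9 to 76.7) in non-differentiated cells, 75.6% (75.1 to 76.0) with DMSO, 20.8% (20.4 to 21.2) for the DNMT1 inhibitor and 76.0% (75.6 to 76.4) for the EED inhibitor, over 1627 shared CpGs and 38123 to 41215 reads. The median CpG was at 91.3%, 91.7%, 17.1% and 91.7%. The difference between the DNMT1 inhibitor and DMSO was -54.8 points (-55.3 to -54.2), which left 27.5% of the DMSO level. From non-differentiated cells to DMSO the difference was -0.746 points (-1.35 to -0.140), and -0.140 as an unweighted mean over CpGs. Over each library's own listed CpGs, which are unequal sets, it was 1.94 points. The EED inhibitor minus DMSO was 0.457 points (-0.150 to 1.06), and over the unequal sets of own CpGs it was -1.03 points.

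**Figure D2:**
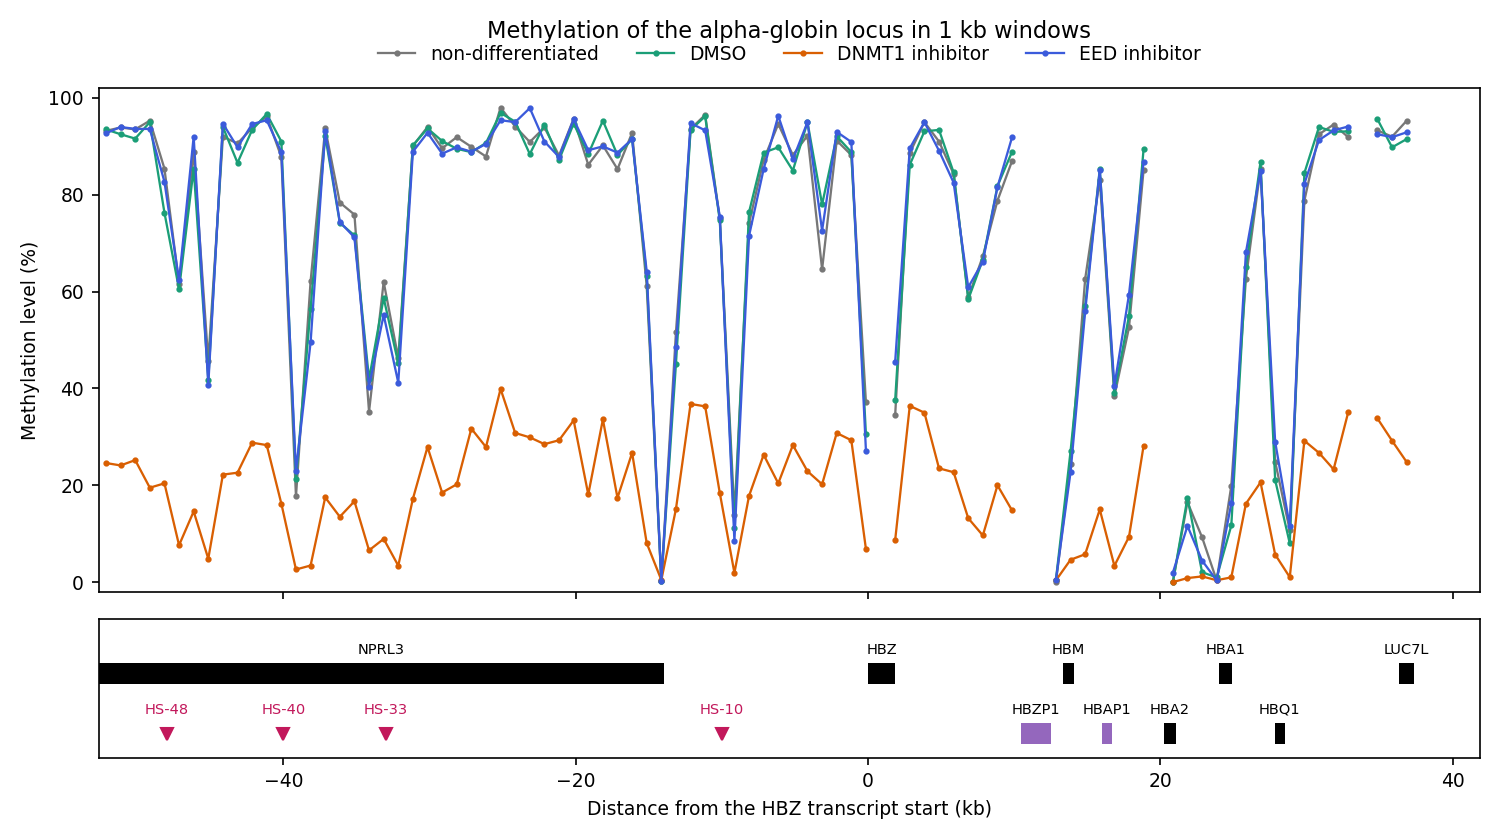
Methylation level in percent (y axis) of the shared CpGs of each 1 kb window with at least 3 of them, against the distance of the window from the HBZ transcript start in kb (x axis), 1 line per library, with genes, pseudogenes (purple) and enhancer points underneath; lines break where a window had too few shared CpGs. The DNMT1 inhibitor line stays at or below 39.9%. The other 3 lines run together, near 90% over most of NPRL3. They are near 0% at the NPRL3 start, just upstream of HBM, at HBA2 and at the HBA1 start.

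Single CpGs of the locus were mostly either high or near 0%. In non-differentiated cells 67.2% of shared CpGs were at 80% or more and 16.2% were at 20% or less, and with DMSO these shares were 67.5% and 16.3%. With the EED inhibitor they were 67.8% and 16.5%. With the DNMT1 inhibitor 0.0615% of them, 1 CpG, was at 80% or more and 56.2% were at 20% or less. Over the shared CpGs of the genome the share at 20% or less was 21.9% in non-differentiated cells and 65.4% with the DNMT1 inhibitor.

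At the CpG level, 1224 of 1627 shared CpGs were called lower with the DNMT1 inhibitor than with DMSO by two-sided Fisher's exact tests with Benjamini-Hochberg adjustment over 23269121 CpGs of the genome, where a call needs an adjusted p under 0.01 and at least 25 points. That is 75.2% of them, against 63.6% of all CpGs tested, and 0 were called higher, against 4.3e-06% of all. These shares are not matched for the DMSO level, which was 75.6% in the locus and 60.3% over the shared CpGs of the genome. With the DNMT1 inhibitor these levels were 20.8% and 16.8%. A CpG under 25% with DMSO cannot be called lower. For differentiation 0 CpGs of the locus were called in either direction, against 0 in the whole genome, and 26 had an unadjusted p under 0.05, 14 lower and 12 higher with DMSO. For the EED inhibitor 0 were called, against 0.00374% lower and 0.000623% higher of all CpGs, and 40 had an unadjusted p under 0.05, 17 lower and 23 higher. Those with an unadjusted p under 0.05 were 1.60% of the locus for differentiation and 2.46% for the EED inhibitor, against 2.55% and 5.46% in the genome.

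**Figure D3:**
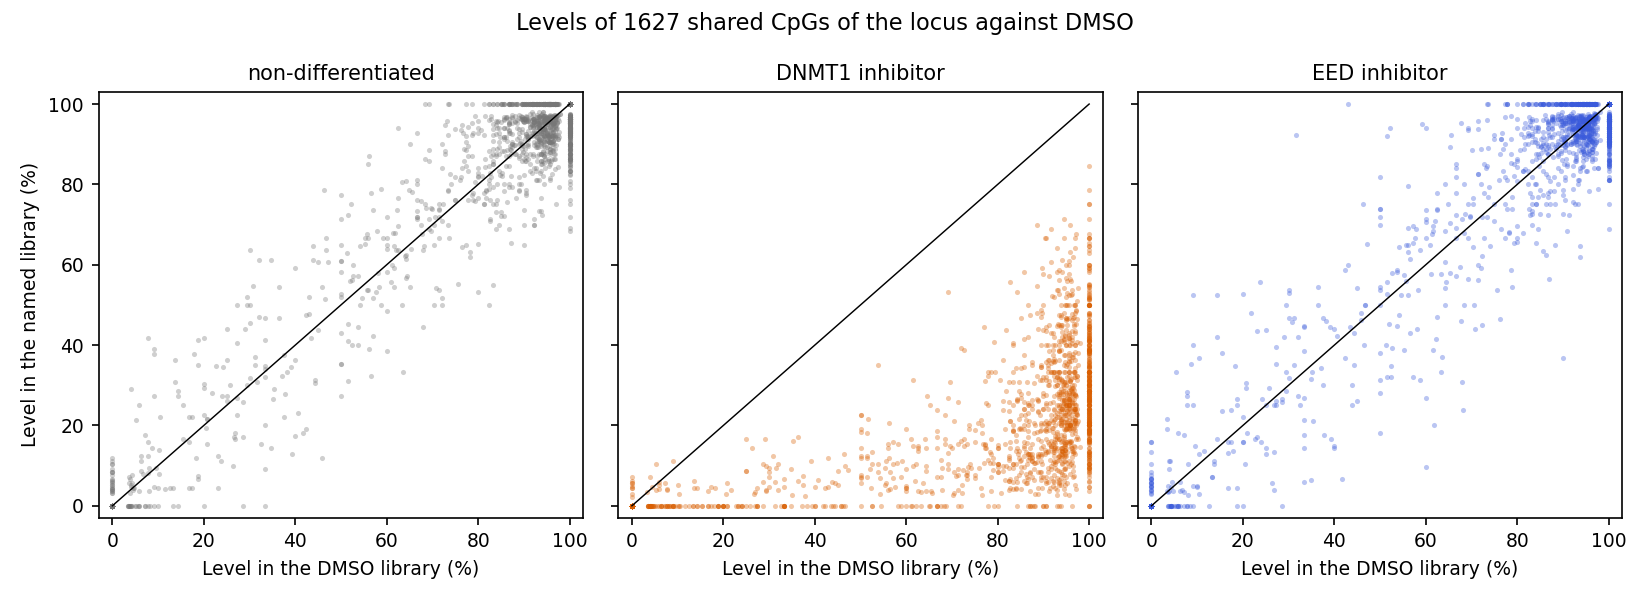
Level of each of the 1627 shared CpGs in percent in the named library (y axis) against its level in the DMSO library (x axis), 1 panel each for non-differentiated, DNMT1 inhibitor and EED inhibitor cells, 1 point per CpG, with the line of equal levels. Points for the first and the last scatter around the line, and 1440 of the 1627 points for the DNMT1 inhibitor lie under it.

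Of 90 windows 85 had at least 3 shared CpGs and were tested. With the DNMT1 inhibitor 72 (84.7%) were called lower, against 81.3% of 2431792 windows of the genome, by the same tests. The 13 others had DMSO levels of 0% to 30.5%. A window under 25% with DMSO cannot reach the 25 points of a call, and among the 13 those from 152001 (30.5%) and 166001 (27%) were above it. The 13 held 1 edge each of the HS-40 and HS-10 sites (windows from 113001 and 143001), the starts of NPRL3 and HBZ (138001 and 152001), HBM (165001 and 166001), the block from HBA2 to just past HBA1 (from 173001 to 178000) and HBQ1 (180001 and 181001). The windows that hold the 40 kb and 10 kb points themselves, from 112001 and 142001, had 91.0% and 74.7% with DMSO and were called lower, by -74.8 and -56.3 points. Differentiation gave 0 called windows in the locus, against 0.000864% lower and 0.000288% higher of all windows, with 9 (10.6%) at an unadjusted p under 0.05, against 8.31% of all windows. The EED inhibitor gave 0, against 0.0266% lower and 0.00592% higher, with 8 (9.41%) at an unadjusted p under 0.05, against 12.6% of all windows.

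Each of the 4 enhancer sites held both highly methylated CpGs and at least 1 low stretch. HS-48 (chr16:103144-106144, NPRL3 intron 7 at its low stretch) had a level of 83.7% (81.7 to 85.6) in non-differentiated cells, 79.4% (77.2 to 81.5) with DMSO, 15.7% (14.0 to 17.6) for the DNMT1 inhibitor and 81.4% (79.2 to 83.4) for the EED inhibitor, over 51 shared CpGs. Its low stretch at chr16:104838-105372 had 5 shared CpGs at 27.3%, 24.3%, 0.769% and 27.3%. The DMSO library differed from the non-differentiated one by -4.25 points (-7.17 to -1.33) for the site, by -0.997 as an unweighted mean over CpGs and by -9.07 with 500 bp on either side. Of its 51 shared CpGs 47 were called lower with the DNMT1 inhibitor, against 63.6% of all CpGs tested. That share also stands against the counts of called CpGs at the other sites, and it is not matched for the DMSO level.

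The site taken for HS-40, the main enhancer of the cluster, had a level close to that of HS-48. The enhancer itself was not mapped, so its own level may differ from that of the site. Whether it lies at the point, in the low stretch or elsewhere was not tested. Over chr16:111144-114144 the levels were 80.0% (77.6 to 82.2), 83.5% (81.4 to 85.4), 18.1% (16 to 20.4) and 80.8% (78.5 to 82.9), on 46 shared CpGs. Its low stretch in NPRL3 intron 5 had 6 shared CpGs at 7.55%, 11.5%, 0.610% and 6.76%. Within 500 bp of the point itself the levels were 88.0%, 90.5%, 16.1% and 89.2% on 23 CpGs. Of the 46 CpGs of the site 41 were called lower with the DNMT1 inhibitor. The DMSO library differed from the non-differentiated one by 3.48 points (0.426 to 6.55), and by 1.07 as an unweighted mean. The interval included 0 at 20 reads (3.07 points) and with 500 bp on either side (2.53 points), while with 1000 bp the difference was 4.95 points.

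HS-33 was the least methylated of the 4 sites in every library. Over chr16:118144-121144 it stood at 51.7% (47.9 to 55.4), 50.7% (47.1 to 54.3), 6.57% (4.90 to 8.77) and 47.7% (44 to 51.5) on 26 shared CpGs, and 15 were called lower with the DNMT1 inhibitor. Its low stretch at chr16:119756-120123 in NPRL3 intron 3 stood at 25.2%, 31%, 5.66% and 25.2%. With the DNMT1 inhibitor HS-33 kept 13% of its DMSO level, HS-48 19.8%, HS-40 21.7% and HS-10 34.0%. These shares are a description of 1 library, and their order depends on the width taken: within 500 bp of its point HS-10 had 65.6% with DMSO and 9.73% with the inhibitor.

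HS-10, the enhancer nearest to HBZ, lies between NPRL3 and HBZ. The levels at chr16:141144-144144 were 68.7% (66.1 to 71.2), 64.0% (61.0 to 66.8), 21.7% (19.5 to 24.1) and 61.2% (58.3 to 64.0), on 48 shared CpGs. The DMSO library differed from the non-differentiated one by -4.78 points (-8.68 to -0.896), and it was 0.806 points when 500 bp on either side were taken and -1.25 points as an unweighted mean. A long low stretch at chr16:143088-143794 had 11 shared CpGs at 3.69%, 4.6%, 1.06% and 3.12%, the first 5 of them at 0% in all 4 libraries. At the 4 sites the interval of the EED inhibitor minus DMSO included 0, with values of 1.95, -2.70, -3.0 and -2.78 points from HS-48 to HS-10.

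**Figure D4:**
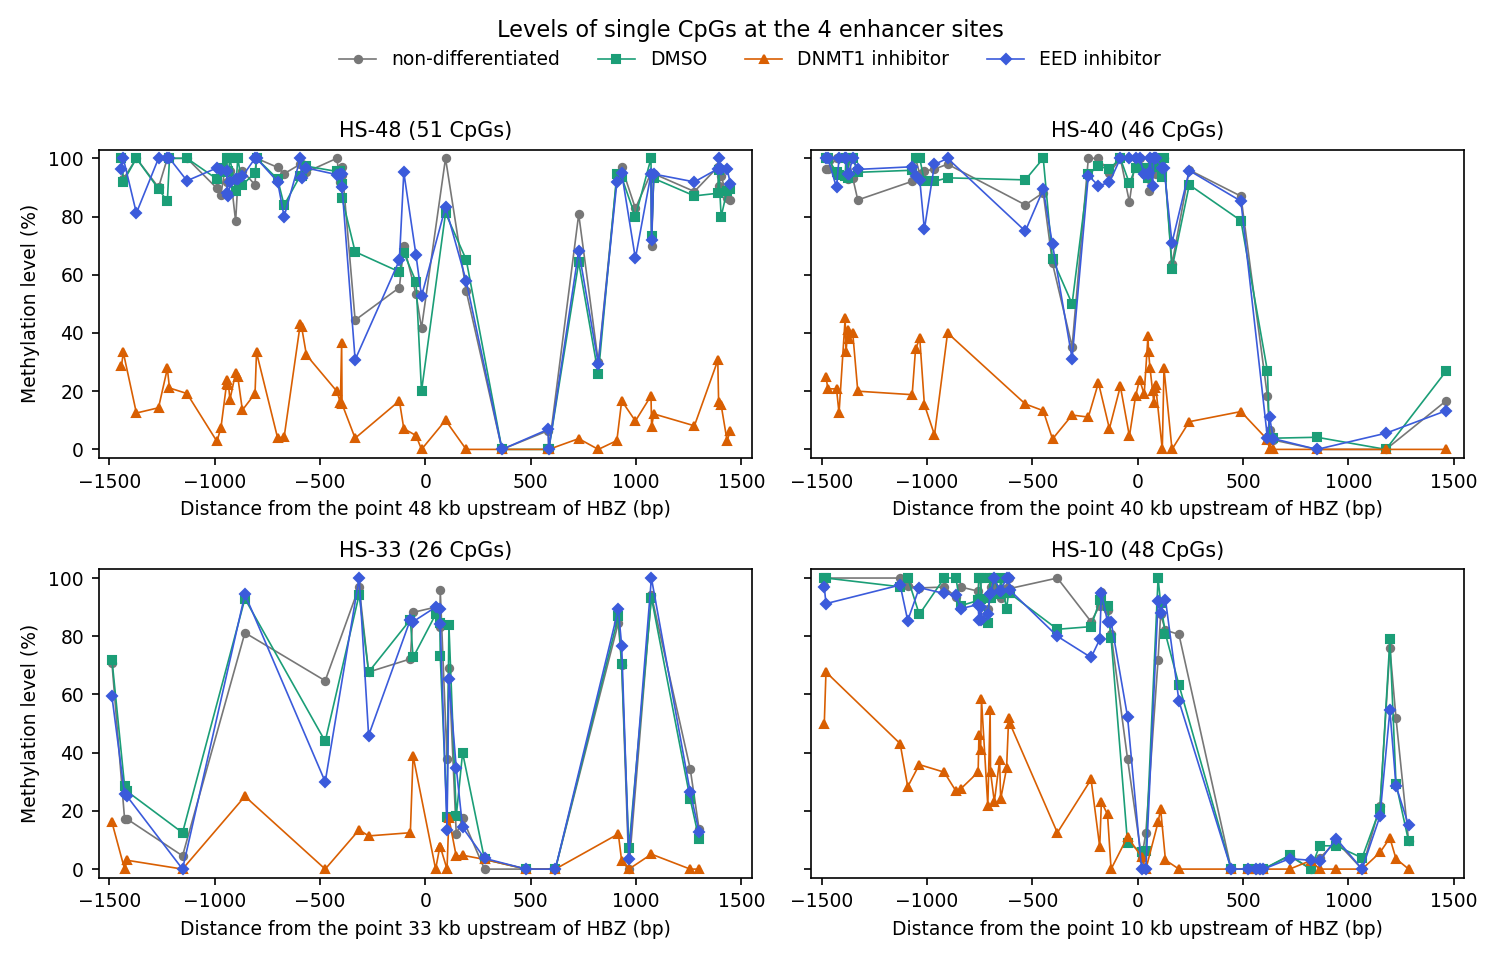
Level of each shared CpG in percent (y axis) against its distance in bp from the point 48, 40, 33 or 10 kb upstream of the HBZ transcript start (x axis), 1 panel per enhancer site and 1 line per library. In each panel the non-differentiated, DMSO and EED inhibitor lines drop together at single CpGs downstream of the point to under 10% with DMSO, at HS-33 there are also low CpGs upstream of it, and the DNMT1 inhibitor line is low throughout, with its highest values in the upstream flank of HS-10.

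Low stretches also lay outside the named enhancers and promoters. There were 26 of them in the locus, 46 to 1252 bp long, with 300 shared CpGs in all. They were chosen on the non-differentiated library, where their levels were 0% to 30.1%, so those levels are a description. In libraries not used for the choice their levels were 0% to 46.9% with DMSO, 0% to 29.5% with the EED inhibitor and 0% to 5.66% with the DNMT1 inhibitor. A stretch in NPRL3 intron 7 at chr16:106911-107382, at -45.5 kb from the HBZ start and outside the 4 sites, was among the lowest, with 9 CpGs at 5.31%, 1.69%, 0.893% and 3.72%. Another at chr16:149311-149503, at -3.24 kb from the HBZ start, stood at 7.96%, 2.78%, 0.806% and 6.59%.

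For differentiation 1 of the 26 stretches had an interval below 0, the one at chr16:106911-107382 (-3.63 points, -7.71 to -0.163), and 1 above. For the EED inhibitor 3 had an interval above 0: chr16:137706-138132 in NPRL3 intron 2 (6.08 points, 1.33 to 10.9), chr16:138739-139377 at the NPRL3 start (2.21 points, 0.230 to 4.28) and chr16:177642-177947 past HBA1 (6.81 points, 0.155 to 13). The remaining stretch with an interval off 0, above for differentiation and below for the EED inhibitor, lies at chr16:144798-144915, at -7.79 kb from the HBZ start and downstream of HS-10, with 4 shared CpGs at 30.1% (22.9 to 38.3), 46.9% (39.4 to 54.6), 5.07% (2.48 to 10.1) and 22.9% (16.5 to 30.8). DMSO minus non-differentiated was 16.8 points (5.66 to 27.3) and the EED inhibitor minus DMSO was -24.0 points (-34.0 to -13.1). Each of the 4 CpGs differed in those directions, but none was called for either comparison. The stretches were chosen as low in the non-differentiated library, which favours a higher DMSO value in that comparison. Both differences use the same DMSO library, and the stretch was named after its values were seen.

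NPRL3, the GATOR1 gene that hosts the enhancers, was highly methylated along its body. Its transcript spans chr16:85386-138673, and the part inside the region had levels of 84.1% (83.6 to 84.7), 82.9% (82.4 to 83.5), 21.6% (21 to 22.2) and 83.4% (82.8 to 83.9). DMSO minus non-differentiated was -1.21 points (-1.99 to -0.427), with 298 CpGs lower and 283 higher, and it was -0.0295 as an unweighted mean over CpGs. With the DNMT1 inhibitor 607 of 685 CpGs were called lower, against 63.6% of all CpGs tested, a share not matched for the DMSO level. Introns of the locus as a whole stood at 83.1%, 81.9%, 21.3% and 82.3%.

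The NPRL3 promoter had a sharp edge between an unmethylated and a methylated part. Promoters run from 1000 bp before to 500 bp after the start of the main transcript. At NPRL3 (chr16:138173-139673) the level was 24.8% (22.4 to 27.5), 23.6% (21.4 to 26.0), 6.49% (5.21 to 8.06) and 24.6% (22.2 to 27.2) on 64 shared CpGs. The 47 shared CpGs at chr16:138739-139377 stood at 4.77%, 3.70%, 1.03% and 5.91%. Farther upstream single CpGs were high, such as chr16:139660 at 95.5%, 96.4%, 37.0% and 90.5%. The promoter's difference with the DNMT1 inhibitor was -17.1 points (-19.9 to -14.4), with adjusted p = 8.41e-33 (Fisher's exact test), and was under the 25 points a call needs. From its 23.6% with DMSO the promoter could not reach a call in this setting. Dividing its reads by its CpG number gave adjusted p = 0.318 (Fisher's exact test). The promoter was called lower at 20 or more reads per CpG (-26.6 points on 13 CpGs) and when taken from 2000 bp upstream (-29.7 points on 86 CpGs). These are other sets of CpGs than the 64 shared ones.

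HBZ, the embryonic zeta-globin gene, had methylated CpGs farther upstream and lower ones just upstream of its start. Its promoter (chr16:151644-153144) stood at 62.6% (58.8 to 66.3), 58.7% (54.7 to 62.5), 14.2% (11.4 to 17.6) and 62.7% (58.5 to 66.8), on 23 shared CpGs and 486 to 634 reads. The difference with the DNMT1 inhibitor was -44.5 points (-49.3 to -39.3), called lower by Fisher's exact test with adjusted p = 1.87e-53 over 18118 promoters. CpGs on the same read are not independent, and when each promoter's reads were divided by its CpG number Fisher's exact test gave adjusted p = 0.0128 and no call.

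Within that promoter the level changed over a short distance. The CpGs at chr16:151670 and chr16:152062 were at 100% and 96.6% in non-differentiated cells, both at 100% with DMSO, at 28.6% and 27.8% with the DNMT1 inhibitor and at 96.6% and 100% with the EED inhibitor. The stretch just upstream of the start, chr16:152312-152566, had 7 shared CpGs at 12.5% (8.32 to 18.4), 10.9% (7.19 to 16.3), 4.40% (2.15 to 8.81) and 9.09% (5.28 to 15.2). The difference with the DNMT1 inhibitor was -6.53 points (-12.3 to -0.747) there, against -44.5 for the promoter as a whole. The stretch was chosen as low and had 10.9% with DMSO, against 58.7% for the promoter, so it had less to lose. In the gene itself (chr16:152644-154503) 4, 5, 8 and 0 CpGs were listed in the 4 libraries, on 43, 56, 122 and 0 reads. Their levels of 32.6%, 78.6% and 14.8% come from different CpGs. The exon 1 CpGs at chr16:152968 and chr16:152990, for example, had 90.9% and 100% with DMSO and 37.5% and 8.33% with the DNMT1 inhibitor, and were missing from the others.

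HBM, the mu-globin gene, had levels near 0% at the shared CpGs of its promoter, which are 30 of 139. At chr16:164978-166478 the level was 0% (0 to 0.769), 0.238% (0.0420 to 1.34), 0.215% (0.0379 to 1.21) and 0.244% (0.0432 to 1.37). The interval of each difference included 0. Over each library's own 100, 39, 55 and 106 listed CpGs, which are unequal sets, the levels were 4.11%, 1.35%, 0.379% and 4.95%. Among CpGs missing from some tables chr16:165119 had 63.6% and chr16:165141 had 53.3% in non-differentiated cells. The gene (chr16:165978-166764) stood at 12.9% (10.4 to 15.9), 8.22% (5.97 to 11.2), 1.23% (0.565 to 2.66) and 8.06% (5.99 to 10.7) on 29 shared CpGs, with the methylated ones near its end. At chr16:166720 the levels were 50.0%, 30%, 4.76% and 52.9%. For the gene DMSO minus non-differentiated was -4.65 points (-8.39 to -0.756), with 7 CpGs lower and 6 higher and an unweighted mean of -1.93, and the mean coverage was 14.7 reads with DMSO and 19.8 in non-differentiated cells.

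HBA2 and HBA1, the alpha-globin genes of the adult cluster, had low levels at the CpGs that could be read. The HBA2 gene (chr16:172876-173710) stood at 0% (0 to 2.62), 0% (0 to 2.24), 0% (0 to 2.15) and 1.94% (0.660 to 5.54) on 12 shared CpGs and 143 to 175 reads. CpGs can share reads, so these bounds are too narrow. The HBA2 gene had listed CpGs only past chr16:173343, and the shared ones had mean coverages of 11.9 to 14.6 reads. Its promoter had no shared CpG among 130, and the 6, 4, 3 and 3 CpGs listed in the 4 libraries stood at 8.20% (3.55 to 17.8), 0% (0 to 8.76), 0% (0 to 10.2) and 0% (0 to 10.7) on 61, 40, 34 and 32 reads, from unequal sets. The HBA1 gene (chr16:176680-177522) had no shared CpG, and its 20, 9, 8 and 12 listed CpGs stood at 0% (0 to 1.72), 0% (0 to 3.97), 1.14% (0.201 to 6.16) and 0% (0 to 2.62). The HBA1 promoter (chr16:175680-177180) had 19 shared CpGs at 1.19% (0.465 to 3.03), 1.28% (0.435 to 3.69), 0.345% (0.0609 to 1.93) and 0.613% (0.168 to 2.21). For the HBA2 gene and the HBA1 promoter the interval of each difference included 0. The listed reads cannot be assigned with certainty where the genes are identical.

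The low methylation of the alpha-globin genes reached into the sequence between them. From HBA2 to HBA1 the level was 7.80% (5.95 to 10.2), 7.90% (5.88 to 10.5), 0.691% (0.269 to 1.76) and 5.61% (4.12 to 7.61) on 34 shared CpGs. At chr16:174774 the levels were 27.3%, 50.0%, 0% and 28%. Over CpGs with 20 or more reads the segment's differences were larger, at 9.70 points for differentiation, -17.0 for the DNMT1 inhibitor and -12.3 for the EED inhibitor, against 0.0973, -7.21 and -2.29 over all shared CpGs. Mean coverage of the 34 was 15.3 to 19.9 reads, so the values at 20 reads rest on only part of them. Of the 34, 2 were called lower with the DNMT1 inhibitor, against 63.6% of all CpGs tested. A CpG under 25% with DMSO cannot be called, and the segment stood at 7.90%. With the inhibitor it kept 8.75% of its DMSO level, against 27.5% for the locus. Upstream, the sequence from HBM to HBA2 was methylated, at 70.9% (68.7 to 73.1), 72.5% (70.4 to 74.5), 16.8% (15.3 to 18.4) and 71.4% (69.3 to 73.5). With promoters taken from 2000 bp upstream, HBA2 gained 26 shared CpGs in this methylated part and a difference of -61.3 points with the DNMT1 inhibitor.

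HBQ1, the theta-globin gene, was at 0% at the shared CpGs of the gene, low just upstream of the start and methylated farther upstream. The gene (chr16:180459-181179) was at 0% in all 4 libraries on 6 shared CpGs and 60 to 110 reads, with upper bounds of 3.93%, 3.37%, 6.02% and 5.92%. Those CpGs lie within 46 bp of the 721 bp gene, at a mean coverage of 10.0 to 18.3 reads. CpGs on the same read are not independent, so these bounds are too narrow. Just upstream of the start, 23 shared CpGs at chr16:180220-180421 were low, at 5.79%, 7.07%, 1.52% and 8.08%. The HBQ1 promoter (chr16:179459-180959), which holds them, stood at 43.4% (40.3 to 46.5), 43.9% (40.9 to 46.9), 12.7% (10.8 to 14.8) and 49.2% (46.3 to 52.1), on 44 shared CpGs. With the DNMT1 inhibitor it was called lower by Fisher's exact test, by -31.2 points (-34.7 to -27.5) with adjusted p = 4.65e-59. After the same division of reads the adjusted p was 0.0710 in Fisher's exact test and the call was lost. At 20 or more reads per CpG the difference was -51.1 points, on 23 of the 44 CpGs.

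The HBQ1 promoter was also the segment with the largest positive difference for the EED inhibitor. That difference was 5.30 points (1.16 to 9.41), with adjusted p = 0.102 (Fisher's exact test), so it was not called. Of its CpGs 11 were higher and 17 lower. The 1 kb window from 180001, which holds most of the promoter, had 21.1% with DMSO and 29.0% with the EED inhibitor, with adjusted p = 0.0611 (Fisher's exact test). Its direction depended on the setting: the difference was -2.18 points as an unweighted mean and -3.45 points over CpGs with at least 20 reads, but 7.37 over each library's own listed CpGs and 3.55 from 2000 bp upstream.

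**Figure D5:**
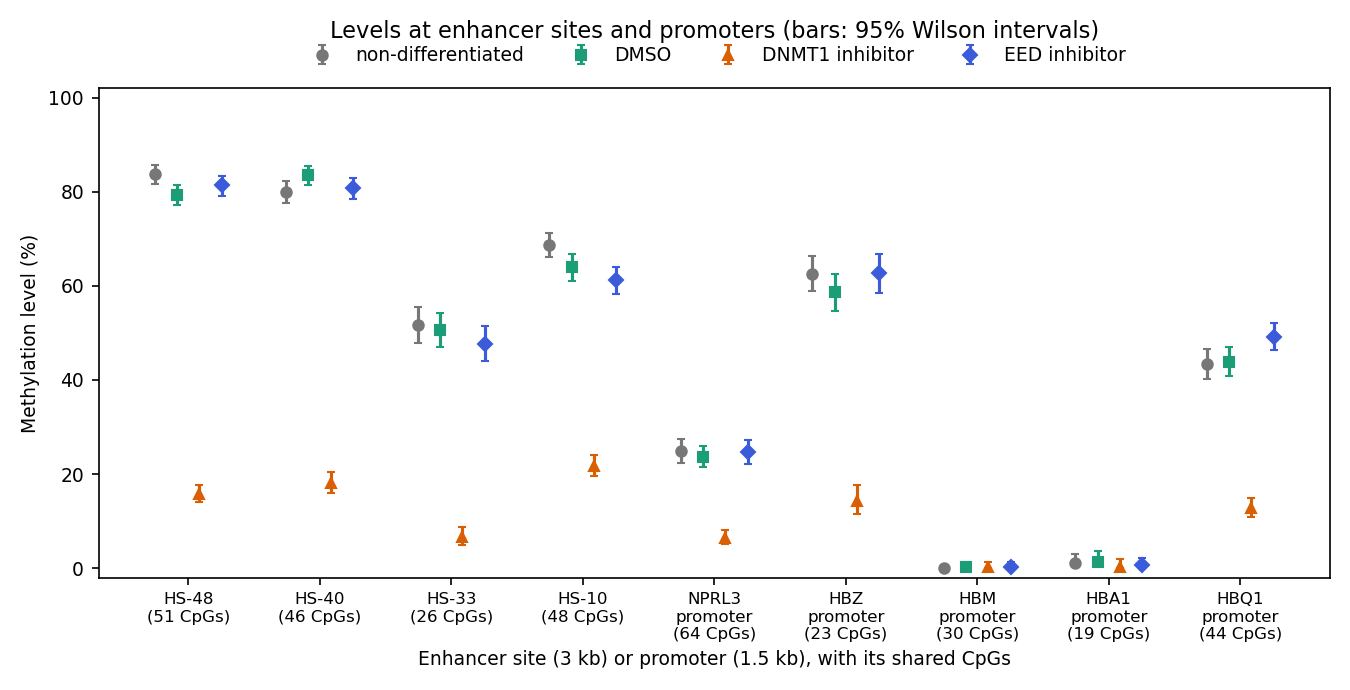
Methylation level in percent (y axis) of the 4 enhancer sites (3 kb each) and of the 5 promoters with shared CpGs (1.5 kb each) in the 4 libraries, 1 point per library with its 95% Wilson interval as a bar (no replicates). The DNMT1 inhibitor point is far below the others at the enhancer sites, HBZ and HBQ1, at 6.57% to 21.7%, and all 4 points are under 1.3% at HBM and HBA1.

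Of the 6 genes, 5 had a promoter with at least 5 shared CpGs, and 2 of these, HBZ and HBQ1, were called lower with the DNMT1 inhibitor, against 43.7% of all 18118 promoters. The uncalled NPRL3, HBM and HBA1 promoters had 23.6%, 0.238% and 1.28% with DMSO and could not reach 25 points. For differentiation and the EED inhibitor 0 of the 5 were called, against 0 in the genome for differentiation and 0.0221% higher and 0 lower for the EED inhibitor. Their unadjusted p by Fisher's exact test was under 0.05 at HBQ1 alone for the EED inhibitor (0.0124), and at none for differentiation, against 21.2% and 17.5% of all promoters. The median difference over the 5 promoters was 0.0826 points for differentiation, -17.1 for the DNMT1 inhibitor and 0.971 for the EED inhibitor, against -0.251, -20.8 and 0.00915 over all promoters tested.

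Promoters of related genes outside the locus were counted in the same way, against the 43.7% of all promoters called lower with the DNMT1 inhibitor. That share was 18.4% after reads were divided by CpGs, and the counts of the lists below are without that division. Of the 5 beta-type globins 3 were called lower with the DNMT1 inhibitor, the embryonic HBE1 and the fetal HBG1 and HBG2, by -57.5 to -67.4 points. The adult HBB and HBD were not, with differences of -12.7 and -24.7 points from DMSO levels of 15.2% and 31.3%, and HBB could not reach 25 points from that level. Among the alpha-globin chaperone AHSP and erythroid regulators, 9 of 11 could be tested and 1 was called, AHSP, at 37.8%, 49.2%, 2.88% and 42.5%. The uncalled regulators had 0% to 17.5% with DMSO, so none of them could reach 25 points. Of 11 neighbours on chromosome 16, 10 could be tested and 5 were called: LUC7L, FAM234A, RGS11, PDIA2 and AXIN1. The uncalled neighbours had 1.52% to 22.6% with DMSO and could not reach 25 points either. None of these lists had a call for differentiation or the EED inhibitor. AHSP passed the p threshold for differentiation (adjusted p = 0.00885, Fisher's exact test), but its 11.4 points (5.38 to 17.3) were under the size of a call. With reads divided by CpGs, 0 of the 18118 promoters had an unadjusted p under 0.05 for differentiation (Fisher's exact test).

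Part of the methylation remained with the DNMT1 inhibitor all along the locus. The 1094 shared CpGs at 80% or more in non-differentiated cells had levels of 94.4%, 93.7%, 26.7% and 93.7%, so 28.5% of the DMSO level was left, against 30.7% for the 11330353 CpGs of the same class in the genome. The level left was 23.5% for those with 1 to 5 CpGs within 250 bp, 23.8% with 6 to 10, 27.8% with 11 to 20 and 29.8% with 21 or more. The 270 CpGs between 20% and 80% in non-differentiated cells had levels of 56.5%, 57.4%, 9.94% and 56.8%, so 17.3% of the DMSO level was left. In 51 windows at 80% or more with DMSO the level with the inhibitor was 14.6% to 39.9%, with a median of 26.7%. The lowest were the windows from 106001 (14.6%), 162001 (14.8%) and 168001 (15%), and the highest those from 155001 (36.4%), 140001 (36.8%) and 127001 (39.9%).

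Single CpGs spread more widely around that level. With the DNMT1 inhibitor 19 of the 1094 were at 0%. The deepest of these was in NPRL3 intron 2 at chr16:133933, with levels of 82.1%, 87.1%, 0% and 78.4% and 38 reads with the inhibitor. In NPRL3 intron 7, chr16:106370 had 91.7%, 92.9%, 0% and 100%. A group of 3 lay upstream of HBZP1 at chr16:162229, chr16:162405 and chr16:162575, all at 0% with the inhibitor, at 87.0%, 96.3% and 84.2% with DMSO. At the other end chr16:127359 in NPRL3 intron 3 had 96.4%, 100%, 84.6% and 93.8%, on 26 reads with the inhibitor. The pairs chr16:134990 and chr16:134996, and chr16:156169 and chr16:156175, lie within a few bases of each other and can share reads. Their levels with the inhibitor were 78.6%, 75.0%, 75.0% and 71.4%.

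For differentiation no single CpG was called, and 4 of the 5 largest differences rested on 10 to 14 reads. The CpG at chr16:110319 in NPRL3 intron 7 had 12.0% (4.17 to 30) in non-differentiated cells and 45.8% (27.9 to 64.9) with DMSO, on 25 and 24 reads. At chr16:174180, between HBA2 and HBA1 in repeated sequence, the levels were 41.7% and 7.69% on 12 and 13 reads. The other 3 of the 5 largest differences were at chr16:182685, at 63.6% and 30%, at chr16:154754, at 0% and 33.3%, and at chr16:139385 in repeated sequence, at 78.6% and 46.2%. The lowest unadjusted p was at chr16:124053 in NPRL3 intron 3, with 100% and 68.4% (p = 0.00445 by Fisher's exact test, adjusted p = 1). The window from 149001, upstream of HBZ, had the largest window difference, from 64.6% (59.5 to 69.5) to 78.0% (73.6 to 81.9), with adjusted p = 0.0618 (Fisher's exact test). The next largest, from 104001 at HS-48, had 85.4% and 76.3%, and the window from 177001 had 19.9% and 11.7%.

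For the EED inhibitor the largest single differences went in both directions. At chr16:154832, just past HBZ, the level was 30.8% in non-differentiated cells, 31.6% with DMSO, 9.52% for the DNMT1 inhibitor and 92.3% for the EED inhibitor, on 13 to 21 reads. At chr16:137144 in NPRL3 intron 2 it was 52.0%, 42.9%, 12.0% and 100%. Lower with the EED inhibitor were chr16:168813 in HBAP1, at 65.0%, 90%, 0% and 36.8%, and chr16:137572 in NPRL3 intron 2, at 38.5%, 60.0%, 4.35% and 9.68%. The latter had the lowest adjusted p of the locus for this comparison, 0.0733 by Fisher's exact test. The CpG at chr16:167413 had 64.7%, 68.2%, 0% and 23.8%. The largest window differences were from 129001, with 88.4% for DMSO and 97.9% for the EED inhibitor, from 154001, with 37.6% and 45.5%, and from 180001 at HBQ1. None was called. The window from 146001 had adjusted p = 0.00955 (Fisher's exact test), with 94.6%, 89.8%, 20.4% and 96.3%, and its difference of 6.50 points (3.46 to 9.86) was under the size a call needs. This p takes CpGs on the same read as independent. With reads divided by CpGs, 0.0892% of all windows had an unadjusted p under 0.05 for the EED inhibitor (Fisher's exact test). The window from 146001 was named after its values were seen.

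The stretches between the globin genes and NPRL3, which also hold pseudogenes and, past HBQ1, the end of LUC7L, made up the rest. From NPRL3 to HBZ the levels were 73.9%, 72.1%, 21.9% and 73.3%, and DMSO minus non-differentiated was -1.81 points (-3.19 to -0.432), -0.413 at 20 or more reads per CpG and -0.247 as an unweighted mean. From HBZ to HBM they were 75.2%, 75.7%, 20.6% and 76.8%. From HBA1 to HBQ1 they were lower, at 51.7%, 51.8%, 13.3% and 54.7%, and past HBQ1 they were the highest of all segments, at 86.8%, 85.3%, 27.0% and 86.1%. Of the 22 segments, promoters and enhancer sites 19 had shared CpGs. Of these, 15 had an interval below 0 for the DNMT1 inhibitor. The 4 others, the HBA2 and HBQ1 genes and the HBM and HBA1 promoters, were at or under 1.28% with DMSO. For differentiation 5 had an interval below 0 and 1 above 0, and at 20 or more reads per CpG 1 and 0 did. For the EED inhibitor 0 had an interval below 0 and 1 above.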

How the data were processed

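The 4 bisulfite-sequenced HUDEP-2 libraries, 1 per group, were grouped by the labels. Per the labels' protocols, lambda DNA at 0.5% was added ahead of conversion. The submitters' processing notes name Trim Galore 0.6.7, cutadapt 4.1, Bismark, Bowtie2 2.1.0, methylKit and hg38, with no settings. Removal of duplicates is not given in the sources used here, and duplicates would make reads less independent than the intervals assume.

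Per the file headers, each deposited table gives the read count (coverage) of each CpG and what percent of those reads had C or T. Each CpG is listed once, on 1 strand, and CpGs under a count of 10 reads are missing. The names of the deposited tables describe the strands as merged. Coverage times percent gave whole methylated reads (tolerance 0.0005 times coverage).

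Single CpGs, 1000 bp windows (3 or more shared CpGs) and promoters (5 or more) were tested over the whole genome (chromosomes 1 to 22 and X) with two-sided Fisher's exact tests and Benjamini-Hochberg adjustment within each comparison, in Python 3.11.15 with scipy 1.17.1 and numba 0.67.0. The code was tested on simulated data. Genes came from GENCODE 44, and motifs and CpGs from the hg38 sequence. Named were the 6 genes, the 4 sites, for differentiation and the EED inhibitor the 5 CpGs and 3 windows with the largest difference, and for the DNMT1 inhibitor those left lowest and highest, of which the text gives the main ones; lowest p values and other names were added after the values were seen. The members and lists were chosen with earlier results of these data known, and the rule for low stretches was set after window levels were seen. Alternatives were a minimum of 20 reads, each library's own listed CpGs, unweighted means, no repeated sequence, narrower sites, longer promoters, reads divided by CpGs, and other thresholds. One enhancer sequence is not reported here.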

Additional observations from a re-analysis of the deposited data

How the results depend on the processing

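The locus level difference between DMSO and non-differentiated cells was -0.746 points, 1.94 with each library's own listed CpGs and -0.140 as an unweighted mean. For the DNMT1 inhibitor it was -54.8, and -53.8, -60.6 and -53.4 with own listed CpGs, at least 20 reads and an unweighted mean. For the EED inhibitor it was 0.457, and -1.03 with own listed CpGs and -0.526 at 20 reads. Own listed CpGs are unequal sets by construction. Segments with a differentiation interval below 0 went from 5 to 1 at 20 reads, and those above 0 from 1 to 5 with own listed CpGs and to 0 at 20 reads or with sites of 500 bp on either side. For the EED inhibitor those below 0 went from 0 to 2 with own listed CpGs and to 1 at 20 reads or without repeated sequence, and those above 0 from 1 to 4 with own listed CpGs and to 0 at 20 reads. CpGs called lower with the DNMT1 inhibitor were 1224 of 1627 tested (75.2%), and 621 of 693 (89.6%) at 20 reads. At 20 reads 68.8% of all CpGs were called, a share not matched for the DMSO level. Promoters called lower with this inhibitor were 2, 3 at 20 reads or at a threshold of 10 points, 0 with reads divided by CpGs and 4 from 2000 bp upstream. Differentiation and the EED inhibitor gave 0 called CpGs, windows and promoters of the locus in each alternative run for calls. Of 237 segment differences under alternatives 199 stayed within the counting interval. The reads left 686 CpGs in no table and 383 in 1 to 3 tables, which are not compared. No paired analysis was possible because each group had 1 library.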
